A study of Drosophila melanogaster with 2 samples.

Results

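The regions described are 2219 binding summits of the transcription factor Onecut in Drosophila embryos that lie at promoters read on 1 strand. The summit of a peak is the point where its signal is highest. It counted as a one-strand promoter summit when protein-coding genes had at least 1 transcription start site (TSS) within 500 bp and all such TSSs lay on the same strand. These 2219 made up 32.9% of the 6747 summits on the main chromosome arms. Another 761 summits had TSSs on both strands within 500 bp and are called divergent promoter summits, and 3767 lay outside promoters.

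Chromatin immunoprecipitation and sequencing (ChIP-seq) was carried out on whole embryos, collected at ages of 0 to 24 hours. The flies, of strain onecut-GFP, expressed Onecut fused to eGFP, and an anti-GFP antibody was used for the precipitation, so the measurement is of the fusion protein. The 2 libraries are biological replicates 1 and 2 of this 1 genotype and age, without a second condition. Embryos of all ages and tissues were mixed, so that strong binding in a few cells and weak binding in many cannot be told apart.

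Onecut is the fly member of a family of transcription factors that carry a cut domain and a homeodomain. It is best known as a protein of the nervous system, made in many differentiating neurons. Factors of this family are known to bind DNA at ATCGAT and ATTGAT, called the core motif below. A promoter holds the TSS and the elements that recruit RNA polymerase II. In flies many promoters of broadly used genes carry TATCGATA, bound by the factor DREF, or GGTCACACT, bound by M1BP, while GAGAG is bound by GAGA factor.

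Sequences at some of the summits are shown for the motifs that the results turn on. The windows at SoxN, wrd, Vha68-1, shep and lute come from the 20 members of highest signal and show the core motif close to the summit. Those at CG14100 and CG18549, also from these 20, have no core motif and are shown as the contrast. Bili and Arl6IP1 carry the promoter elements TATCGATA and GGTCACACT. Each is written 5′ to 3′ on the strand of the gene, from the Release 6 assembly in dm6 coordinates, with the motif named in capitals. The Bili window also holds the core motif ATTGAT, left in lower case. The Arl6IP1 stretch is a 30 bp piece of its window that does not reach the summit, and that window also holds a core motif.
SoxN: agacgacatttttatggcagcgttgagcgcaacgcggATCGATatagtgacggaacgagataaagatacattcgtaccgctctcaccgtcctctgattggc
wrd: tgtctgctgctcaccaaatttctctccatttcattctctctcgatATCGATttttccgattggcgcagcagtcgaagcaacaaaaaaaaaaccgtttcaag
Vha68-1: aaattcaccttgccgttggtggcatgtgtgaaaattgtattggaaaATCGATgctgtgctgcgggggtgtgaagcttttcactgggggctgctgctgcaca
shep: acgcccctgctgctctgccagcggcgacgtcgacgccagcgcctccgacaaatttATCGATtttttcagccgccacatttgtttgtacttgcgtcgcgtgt
lute: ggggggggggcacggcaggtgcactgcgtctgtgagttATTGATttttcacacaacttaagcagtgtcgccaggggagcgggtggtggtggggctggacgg
CG14100: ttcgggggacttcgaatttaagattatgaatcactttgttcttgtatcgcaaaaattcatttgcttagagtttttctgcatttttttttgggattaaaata
CG18549: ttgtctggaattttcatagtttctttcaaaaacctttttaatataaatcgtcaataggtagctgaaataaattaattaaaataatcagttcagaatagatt
Bili: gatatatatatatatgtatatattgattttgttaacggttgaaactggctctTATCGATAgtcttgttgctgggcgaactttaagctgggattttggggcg
Arl6IP1: cgtcgatcaacGGTCACACTgcgactttgg

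These windows lie at chr2L:8825267-8825367 (SoxN, plus strand), chr3R:18172743-18172843 (wrd, plus strand) and chr2L:13003819-13003919 (Vha68-1, minus strand). The others lie at chr3L:5247923-5248023 (shep, minus strand), chr3R:17386321-17386421 (lute, plus strand) and chr3L:19590567-19590667 (CG14100, minus strand). CG18549 is at chr3R:12449113-12449213, Bili at chr3R:25131184-25131284 and Arl6IP1 at chr3R:16643736-16643765, all on the plus strand. The windows of SoxN, CG14100 and CG18549 lie outside protein-coding genes, upstream of the TSS. At wrd the summit is 51 bp upstream of the nearest TSS but in an intron of a longer transcript. The summits at Vha68-1, shep and lute lie in introns, 238, 475 and 480 bp downstream of the TSS. In the SoxN window the motif centre is 10 bp from the summit, at lute 9 bp, at shep 8 bp, at wrd 2 bp and at Vha68-1 1 bp.

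The members lay mostly upstream of their nearest TSS and close to it. The summit was upstream at 1404 members (63.3%), on the TSS at 11 and downstream at 804 (36.2%). The median position was -46 bp, with the middle 50% of members between -172 and 43.5 bp. Within 50 bp of a TSS there were 621 members (28.0%), within 100 bp 977 (44.0%) and within 200 bp 1425 (64.2%). The share upstream was 66.6% among the 1721 one-strand promoter summits of replicate 1 alone and 61.2% among the 2098 of replicate 2 alone.

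One-strand promoter sequence within 500 bp of a TSS spans 6.17 Mb upstream and 7.47 Mb downstream, so densities were also compared per megabase. There were 227 members per Mb upstream and 108 downstream. In bins of 100 bp, density rose from 90.5 members per Mb at 400 to 500 bp upstream to 410 in the last 100 bp before the TSS. It was 275 in the first 100 bp after the TSS and 66.2 in the next 100 bp, and further downstream it was 59.8 at 300 to 400 bp and 73.8 at 400 to 500 bp. One-strand promoter sequence as a whole held 162 summits per Mb, against 454 in divergent promoter sequence and 31.8 outside promoters.

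**Figure D1:**
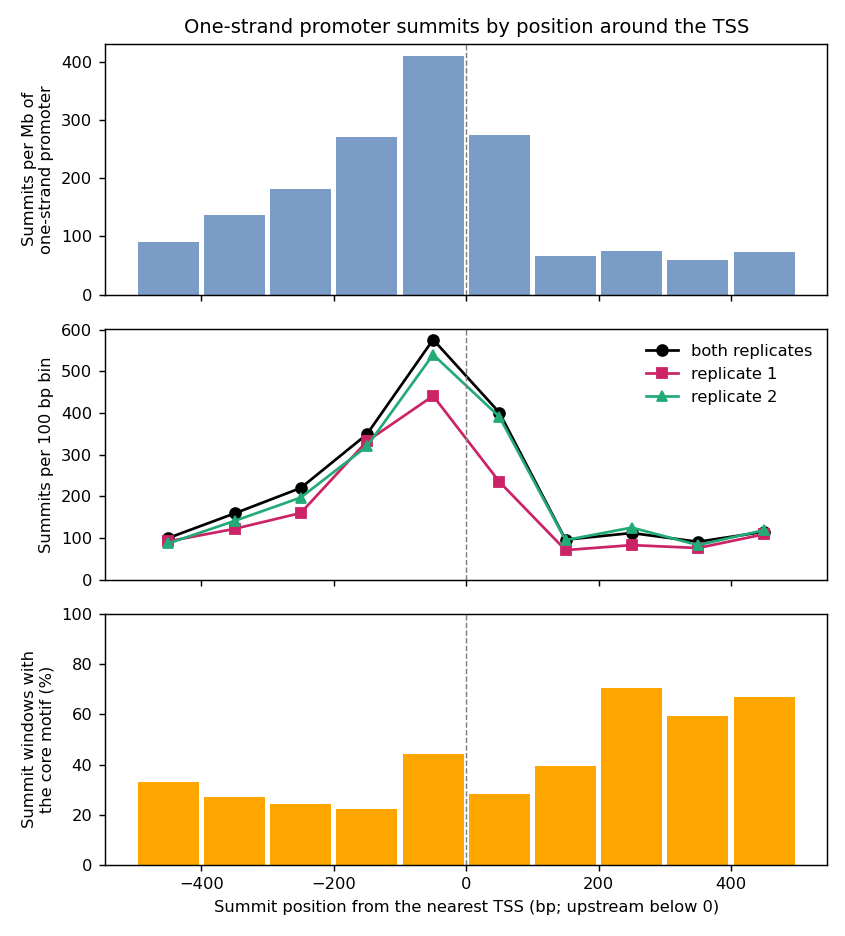
Position of one-strand promoter summits in 100 bp bins around the nearest TSS: members per Mb of one-strand promoter sequence (top), number of summits in the list of both replicates and in each replicate's own list (middle), and percent of member windows with the core motif (bottom). All 3 lists peak in the 100 bp before the TSS, with 576, 441 and 540 summits, and the core motif is most frequent from 200 bp downstream.

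Both replicates placed the most summits in the same bin, the last 100 bp upstream, with 441 for replicate 1 and 540 for replicate 2. They differed most in the first 100 bp downstream, with 235 summits for replicate 1 and 391 for replicate 2. Of the 2204 members with a peak in the ranked list of each replicate, 2004 (90.9%) had their replicate summits on the same side of the TSS. The gap between a member's summit positions in the replicates had a median of 18 bp.

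By annotation, 810 of the 1404 upstream members (57.7%) lay outside protein-coding genes and 458 (32.6%) in introns. Introns of any protein-coding gene were counted, not only of the gene with the nearest TSS. At eIF6 and elav, for example, the upstream summit counted as intronic lay outside the gene itself. Of the 804 downstream members, 554 (68.9%) lay in exonic untranslated sequence, 221 (27.5%) in introns and 29 (3.61%) in coding exons. Per arm, the share of protein-coding genes with a member was between 12.9% and 14.1% on 2L, 2R, 3L, 3R and X. On the small chromosome 4 it was 19 of 80 genes (23.8%).

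The limit of 500 bp cuts through peaks of varied height. Just inside it were CG5973 with a summit 500 bp upstream and a signal of 154, CG9003 at 500 bp downstream with 93.6 and CG31523 at 499 bp downstream with 327. Just outside were phyl at 502 bp downstream with 756, aru at 503 bp downstream with 551 and l(3)neo38 at 503 bp upstream with 184.

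The members belonged to 1913 of 13945 protein-coding genes, 13.7% of them. Counting only the 10738 genes with a TSS that has no opposite-strand neighbour within 500 bp, 1860 (17.3%) had a member. One member was found at 1602 of the 1913 genes, 2 at 263 and 3 or more at 48. The most at any gene was 5, reached at Rtnl1, Ptpmeg2, Moe and Nadk1a. Rtnl1 encodes a reticulon of the endoplasmic reticulum, Ptpmeg2 a tyrosine phosphatase and Moe the protein moesin, which links actin to the plasma membrane. The tagged gene itself, onecut, had no summit within 500 bp of its TSS in the list of both replicates or of replicate 1, and 1 in that of replicate 2.

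Peak heights below are the signal values of the deposited lists, whose scale the sources used here do not state. In the list of both replicates the members had a median signal of 160, with the middle 50% between 109 and 290, and reached 2942. The divergent promoter summits had a median of 163 and the summits outside promoters 142. The member median over the divergent median was 0.984 in the list of both replicates, 0.998 for replicate 1 and 0.970 for replicate 2. The difference between the promoter classes is thus of the size of the difference between the replicates. Of the 100 highest peaks of the whole list, 50 were members, 16 divergent and 34 outside promoters.

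The highest member lay at Dab, which encodes an adaptor protein of the Abl tyrosine kinase pathway in growing axons. Its peak, at chr3L:16712313-16712850 with the summit 472 bp downstream of the TSS, had a signal of 2942 in the list of both replicates, 1180 in replicate 1 and 1799 in replicate 2, by the ranked list of each. The second lay 41 bp upstream of Ugalt, the gene of a UDP-galactose transporter, with 2898, 1510 and 1404 in the same lists. The value of replicate 2 relative to replicate 1 was thus lower at Ugalt than at Dab.

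Among the 20 highest members were several genes of nerve cells and synapses. bchs, whose product acts in endosomal and autophagic transport in neurons, had signals of 2440 in the list of both replicates, 895 in replicate 1 and 1501 in replicate 2. CaMKI, a calcium and calmodulin-dependent kinase, had 2358, 910 and 1462, and its window held 2 core motifs. SoxN, a Sox-family factor of the neuroectoderm, had 2024, 817 and 1221. In these 3 windows a core motif lay within 10 bp of the summit. EndoA, which encodes endophilin of synaptic vesicle endocytosis, had 1850, 753 and 1096. shep, an RNA-binding protein of neurons, had 1730, 725 and 989. All 5 windows held the core motif.

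The other genes of the 20 highest had varied roles. capu, a formin that nucleates actin, had signals of 2124 in the list of both replicates, 887 in replicate 1 and 1250 in replicate 2. Tace, a membrane metalloprotease, had 1674, 637 and 1044. wrd, a regulatory subunit of protein phosphatase PP2A, had 1658, 628 and 1032. Each held a core motif, 2 bp from the summit at capu and wrd and 20 bp from it at Tace. Vha68-1, a catalytic subunit of the proton pump V-ATPase, had 1615, 616 and 974. CG13293, CG14442, CG9368, lute, CG43324 and RabX4 had signals between 1894 and 2399 in the list of both replicates and core motifs in their windows. The 4 of the 20 without the core motif were Ugalt, CG14100, CG18549 and PNPase, the last a mitochondrial exoribonuclease. All 4 summits lay upstream of the TSS, against 7 of the 16 with the motif.

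The core motif, searched as ATCGAT or ATTGAT on either strand in windows of 50 bp on each side of the summit, was found at 824 of 2219 members (37.1%, 95% Wilson interval 35.1 to 39.2). In all one-strand promoter sequence tiled with windows of the same length, 10.9% held it. ATTGAT occurred equally on both strands of the gene, with 194 copies on the strand of the gene and 192 on the other. Copies were concentrated at the summit, with 579 within 20 bp of it and 229 at 150 to 190 bp, a density ratio of 5.06 per base.

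**Figure D2:**
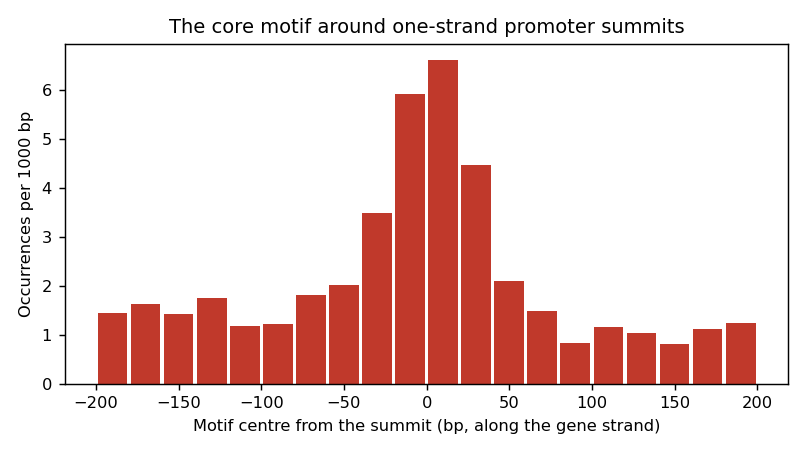
Occurrences of the core motif per 1000 bp in 20 bp bins around the 2219 one-strand promoter summits, with positions counted along the strand of the gene. The density is highest within 20 bp of the summit on either side.

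The flank of the motif was often rich in T, as in the windows of wrd, shep and lute printed above. The longer forms ATTGATTT and ATCGATTT, looked for after seeing the data, were held by 434 of the 824 member windows with the core motif (52.7%, interval 49.3 to 56.1). Among tiles of one-strand promoter sequence with the core motif the share was 20.7% (20.1 to 21.4). In the 25% of members with the highest signal it was 231 of 318 (72.6%), and in the lowest 25% it was 45 of 129 (34.9%). Divergent summits with the core motif had it at 38.1% (32.5 to 44.0) and summits outside promoters at 56.7% (54.2 to 59.2). These shares were not tested against each other.

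Taller peaks more often held the motif. With the members split by signal into 4 groups of equal size, the share with the core motif was, from the lowest group to the highest, 23.2%, 28.8%, 39.2% and 57.3%. Of the 100 highest members 80 held it, and of the 20 highest 16. The median signal was 216 for the 824 members with the motif and 140 for the 1395 without. This is a description across regions of 1 list, which share their libraries.

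Position and motif were related. Of upstream members 32.9% held the core motif and of downstream members 44.5%, an odds ratio of 0.611 (95% interval 0.511 to 0.730, Fisher's exact test, two-sided, adjusted p = 4.6e-07 over 36 tests). The windows are not biological replicates, so this and the following p-values cover the windows counted and not how embryo collections vary. The odds ratio was 0.395 for replicate 1 alone and 0.641 for replicate 2 alone. With promoters limited to 250 bp it was 0.833 (Fisher's exact test, adjusted p = 0.148). By bin, the share was highest beyond 200 bp downstream, where 59.3% to 70.5% of member windows held the motif. At 100 to 200 bp it was 39.6% downstream and 22.3% upstream, the latter the lowest of all bins. Beside the TSS the order was opposite, with 44.3% in the last 100 bp upstream and 28.4% in the first 100 bp downstream.

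Members more than 200 bp downstream stood apart in height as well. These 315 had a median signal of 228 and 66.0% held the motif. The 479 members more than 200 bp upstream had a median of 163 and 26.9% held it. Dab, lute, shep and Vha68-1 are of the first kind, and SoxN is of the second but holds the motif.

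The share with the core motif in members lay close to that in the other summits. It was 35.2% at divergent promoter summits, an odds ratio of 1.09 (0.915 to 1.29, exact adjusted p = 0.463), though windows of 25 bp on each side gave 1.28 (Fisher's exact test, adjusted p = 0.033). It was 39.5% outside promoters, an odds ratio of 0.905 (0.812 to 1.01, exact adjusted p = 0.148). This latter value was below the threshold in 5 other settings, among them the list of replicate 2 with 0.845 (exact adjusted p = 0.0086), while the list of replicate 1 gave 1.09 (exact adjusted p = 0.280). ATTGAT alone was less frequent at members than outside promoters, 16.5% against 21.4% (odds ratio 0.729, exact adjusted p = 1.7e-05).

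The promoter classes differed in other short sequences. TATCGATA, which contains ATCGAT, was found at 59 members (2.66%) and at 55 of 761 divergent summits (7.23%), an odds ratio of 0.351 (0.240 to 0.511, exact adjusted p = 7.7e-07). Outside promoters it was found at 7 of 3767 (0.186%). GAGAG was found at 17.1% of members and 9.46% of divergent summits (odds ratio 1.98, exact adjusted p = 8.3e-07). CACACAC was found at 6.40% and 1.97% (odds ratio 3.40, exact adjusted p = 1.7e-06). ACACTG was found at 9.10% of members and 99 of 761 divergent summits (odds ratio 0.670, exact adjusted p = 0.0074). Members thus had fewer TATCGATA and ACACTG and more GAGAG and CACACAC windows than divergent summits. Tiles of one-strand promoter sequence held TATCGATA at 0.669%, GAGAG at 12.8%, CACACAC at 3.82% and ACACTG at 4.43%. No tiles of divergent promoter sequence were counted. Whether the differences are those of the surrounding promoter sequence was therefore not tested.

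GGTCACACT was found at 39 members (1.76%), at 2.50% of divergent summits and at 3 windows outside promoters (0.080%). Against the divergent summits the odds ratio was 0.699 (0.401 to 1.22, exact adjusted p = 0.323) and against those outside promoters 22.4 (6.93 to 72.7, exact adjusted p = 6.9e-13). CAGCTG, an E-box, was found at 7.17% of members and 4.09% outside promoters (odds ratio 1.81, exact adjusted p = 1.7e-06). GATAA, TGACGTCA and CAGGTAG passed the threshold in none of the 3 comparisons. Of one-strand promoter tiles 0.362% held GGTCACACT and 4.91% CAGCTG, and no tiles outside promoters were counted.

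Among the members, TATCGATA was more frequent upstream and CACACAC downstream. Promoter sequence without summits was not counted by side, so whether the sides differ in it as well was not tested. TATCGATA was found at 3.77% of upstream and 0.622% of downstream members (odds ratio 6.27, exact adjusted p = 4.9e-06). CACACAC was found at 3.99% and 10.7% (odds ratio 0.347, exact adjusted p = 2.7e-08). The member with TATCGATA of highest signal lay upstream of Alg3. It had 980 in the list of both replicates, 480 in replicate 1 and 526 in replicate 2. Another lay 7 bp upstream of eEF1gamma, a translation elongation factor subunit, with 723, 364 and 360. Bili, whose window is printed above, had 398, 161 and 231. Arl6IP1, with GGTCACACT, had 791, 297 and 482. CG43324, of the 20 highest, had the highest signal of the members with GGTCACACT, with 1941, 715 and 1216.

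At the TSSs themselves, a TATA box (TATAAA starting 40 to 20 bp upstream) was found at 63 of 2087 nearest TSSs of members (3.02%, interval 2.37 to 3.84). Among one-strand TSSs without a summit it was found at 1074 of 12249 (8.77%, 8.28 to 9.28). The initiator form TCAGT was found at 16.2% and 13.6%. TCTTT, a form of the pyrimidine-rich initiator known from ribosomal protein genes, was found at 1.96% and 1.53%. These shares are given without a test.

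The replicates can be compared member by member. Of the 2219 members, 1466 (66.1%) overlapped a peak past the authors' threshold in each replicate, 152 in replicate 1 alone, 331 in replicate 2 alone and 270 in neither, and 2204 had a peak in both ranked lists. Among the divergent summits 66.0% overlapped a thresholded peak of each replicate and outside promoters 59.1%. The signals of the 2204 had a Pearson correlation of 0.938 and a Spearman correlation of 0.863 between the replicates, over peaks chosen for being reproducible.

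The signal of replicate 2 over that of replicate 1 had a median of 1.31 over the members. Because the scale of each list is not given, the ratio by itself carries no meaning and only its differences among members are described. They were looked at after seeing the data. Members with the core motif had a median ratio of 1.48, with the middle 50% from 1.22 to 1.74. Members without it had 1.21, from 0.988 to 1.48. The ratio was above the median of all members at 558 of 819 with the motif (68.1%) and at 544 of 1385 without (39.3%).

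**Figure D3:**
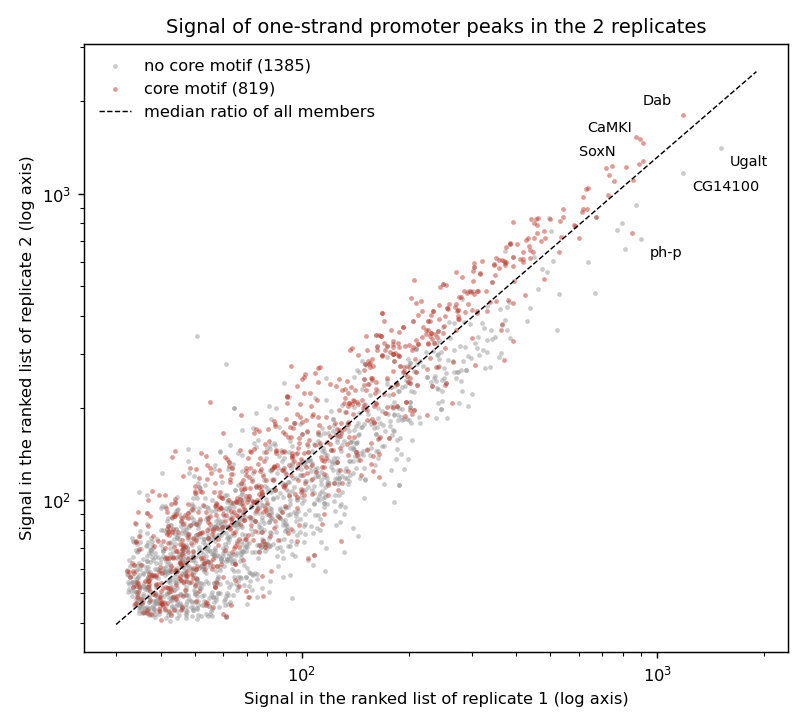
Signal of each one-strand promoter peak in replicate 1 and replicate 2, by their ranked lists, on log axes, for 819 members with the core motif and 1385 without. The dashed line is the median ratio of 1.31, and among the tallest peaks those with the motif lie mostly above it and those without mostly below.

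The gap between members with and without the motif was widest among the tallest peaks. In the lowest 25% by signal the median ratios were 1.23 with and 1.26 without the motif. In the highest 25% they were 1.57 and 1.09. Among the 20 highest members the 16 with the motif had ratios from 1.29 to 1.77 and the 4 without from 0.930 to 1.05, which do not overlap. Below the 20 they did: CG1888, the 21st in signal and with the motif, had a ratio of 0.881, while CG13334 and Dll, without it, had 1.68 and 1.75. Of the 100 highest members the ratio was above the median of all members at 70 of 80 with the motif and 4 of 20 without. Among the named genes without the motif, px, a gene of wing vein development, had signals of 1536 in the list of both replicates, 770 in replicate 1 and 759 in replicate 2. ph-p, a Polycomb protein, had 1477, 898 and 710, and eIF6, a factor that keeps ribosomal subunits apart, had 1147, 668 and 476. These 3 were named for their height in a list or among windows without the motif, and CG1888, CG13334 and Dll were chosen after their values were seen.

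The same direction was seen in the other classes. At divergent promoter summits the median ratio was 1.37 with the motif and 1.16 without, and outside promoters 1.51 and 1.16. The difference was thus present in all 3 classes, and whether its size differs between them was not tested. Members with the motif also passed the threshold in both replicates more often, 616 of 824 (74.8%, interval 71.7 to 77.6). Of members without, 850 of 1395 did (60.9%, 58.3 to 63.5). Members past both thresholds were taller, with a median signal of 230 against 103 for the others. Those with the motif were taller too, 216 against 140, and the 2 were not separated. With 2 libraries, no test of a difference between replicates was made.

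Base composition moved with the same split. The G and C content of the window had a median of 43.6% over all members, equal to that of one-strand promoter tiles. Among members without the motif it was 46.5% in the lowest 25% by signal and 34.7% in the highest. Among those with the motif it was 43.6% and 45.5%. The 4 of the 20 highest members without the motif had between 22.8% and 34.7%, and the 16 with it between 39.6% and 62.4%. The windows of CG14100 and CG18549 above show this, and the part of base composition in the replicate ratio was not tested.

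**Figure D4:**
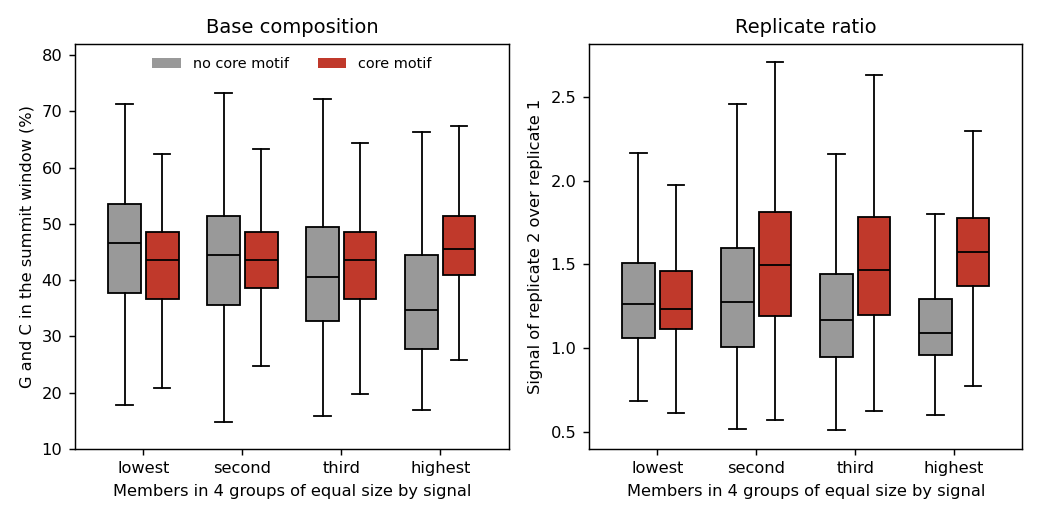
Percent G and C of the summit window (left) and ratio of the signal in replicate 2 to that in replicate 1 (right) for members in 4 groups of equal size by signal, with the core motif (red) and without (grey). Boxes span the middle 50% of members with the median as a line, and whiskers reach the furthest value within 1.5 box lengths, with values beyond not drawn. In the highest group the median G and C content was 45.5% with and 34.7% without the motif, and the ratio 1.57 and 1.09.

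Genes were grouped by function in 27 lists, written with earlier results of these data known, and counted as having a member or not. All values are to be read against the 13.7% of protein-coding genes with a member and carry 95% Wilson intervals. A gene counted if a member lay within 500 bp of any of its TSSs. Genes with more TSSs thus have more places for a member, and the number of TSSs was not taken into account. No test was made on a list. Where a motif is counted, it is in the window of the tallest member of each gene, where 39.5% of the 1913 genes held the core motif.

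The pan-neuronal list had the largest share of all its genes. Of 29 pan-neuronal and synaptic genes 16 had a member (55.2%, interval 37.5 to 71.6), and 14 of these 16 held the core motif. Their members had a median signal of 413 and a median position of 69 bp downstream. Csp, the cysteine string protein of synaptic vesicles, had 1271 in the list of both replicates, 441 in replicate 1 and 828 in replicate 2. Syt1, the calcium sensor synaptotagmin, had 1142, 527 and 647. elav, an RNA-binding protein of neurons, had 781, 361 and 420, without the core motif in its window. All 3 passed the threshold in each replicate.

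Axon guidance genes had a like share but rarely the motif. Of 32 there were 17 with a member (53.1%, 36.4 to 69.1), of which 3 held the core motif, with a median signal of 176. Lar, a receptor tyrosine phosphatase, had 312 in the list of both replicates, 112 in replicate 1 and 176 in replicate 2. Among 29 neuroblast and proneural genes 11 had a member (37.9%, 22.7 to 56.0), 8 with the core motif. brat, a growth-limiting factor of neural stem cell daughters, had 728, 304 and 471. numb, the Notch inhibitor of asymmetric division, had 424, 224 and 190, and counts in the Notch list too. Of 36 neuronal homeobox and subtype factors 5 had a member (13.9%), a share near that of all genes, and of 8 Hox genes 1, Ubx, with a signal of 86.8.

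Genes of cell signalling followed. Of 18 Notch pathway genes 8 had a member (44.4%, 24.6 to 66.3) and 1 of these the core motif. gro, the Groucho corepressor, had 327 in the list of both replicates, 198 in replicate 1 and 136 in replicate 2. Of 43 genes of the patterning pathways 16 had a member (37.2%, 24.4 to 52.1), 2 with the core motif. Apc, a negative regulator of Wnt signalling, had 1019, 393 and 623, and shn, a factor of the Dpp pathway, had 424, 145 and 263. Of 19 genes for 14-3-3 proteins and calcium signalling 7 had a member (36.8%, 19.1 to 59.0), 5 with the core motif. The lists of high share thus differed in how often they held the motif.

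Cytoplasmic ribosomal protein genes were the largest group by number. Of 93 there were 42 with a member (45.2%, 35.4 to 55.3), and 31 more had only a divergent promoter summit. Of the 60 with a one-strand TSS, 41 had a member (68.3%), against 17.3% over all such genes. Their median position was 8.5 bp upstream. The core motif was held by 11 of the 42, TATCGATA by 6 and GGTCACACT by 4. RpS4 had 590 in the list of both replicates, 337 in replicate 1 and 273 in replicate 2. RpS28b had 570, 306 and 276, and RpL24 had 563, 246 and 304. The median ratio of replicate 2 to replicate 1 was 1.17 for this list, 1.09 for translation factors and 1.49 for the pan-neuronal list, against 1.31 over all members.

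Other genes of general cell functions varied. Of 53 translation factors 13 had a member (24.5%, 14.9 to 37.6) and of 33 V-ATPase genes 8 (24.2%, with a lower bound of 12.8%), with Vha55 at 933, 374 and 586 after Vha68-1 and VhaAC45RP. Of 31 Polycomb and Trithorax group genes 8 had a member (25.8%, 13.7 to 43.2) and of 19 promoter-binding and insulator factors 7 (36.8%, 19.1 to 59.0), among them CTCF with 409, 197 and 209. Mitochondrial ribosomal protein genes had a member at 5 of 73 (6.85%, 2.96 to 15.1) and tRNA synthetase genes at 1 of 33 (3.03%, 0.537 to 15.3). Proteasome genes had one at 1 of 48 (2.08%, 0.369 to 10.9), Rpn1. No splicing factor gene of 34 had one, and 9 of them had only a divergent promoter summit. Many genes of these lists have no one-strand TSS, which limits how many could have a member. Among genes with such a TSS the counts were 5 of 20 for mitochondrial ribosomal proteins and 6 of 26 for RNA polymerase II genes (23.1%), both above the 17.3% over all such genes. They were 1 of 14 for tRNA synthetases, 1 of 26 for the proteasome and 0 of 12 for splicing factors. The shares of respiratory chain (12.2%), Rab GTPase (19.4%), membrane traffic (14.7%), cell cycle (16.3%) and RNA polymerase II genes (9.52%) had intervals that take in 13.7%.

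Genes of the cuticle, the senses and digestion had few or no members. None of 117 cuticle protein genes, 179 chemosensory receptor genes or 27 digestive protease genes had one, and of 85 cytochrome P450 genes 2 did, Cyp6u1 with a signal of 253 and Cyp310a1 with 114. Of 25 genes of muscle and mesoderm 6 had a member (24.0%, 11.5 to 43.4). These included tin, the homeobox factor of the heart, with 437 in the list of both replicates, 192 in replicate 1 and 234 in replicate 2, and Msp300, a large protein of muscle nuclei, with 393, 157 and 247. A count of 0 says only that no summit of this list lay there.

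**Figure D5:**
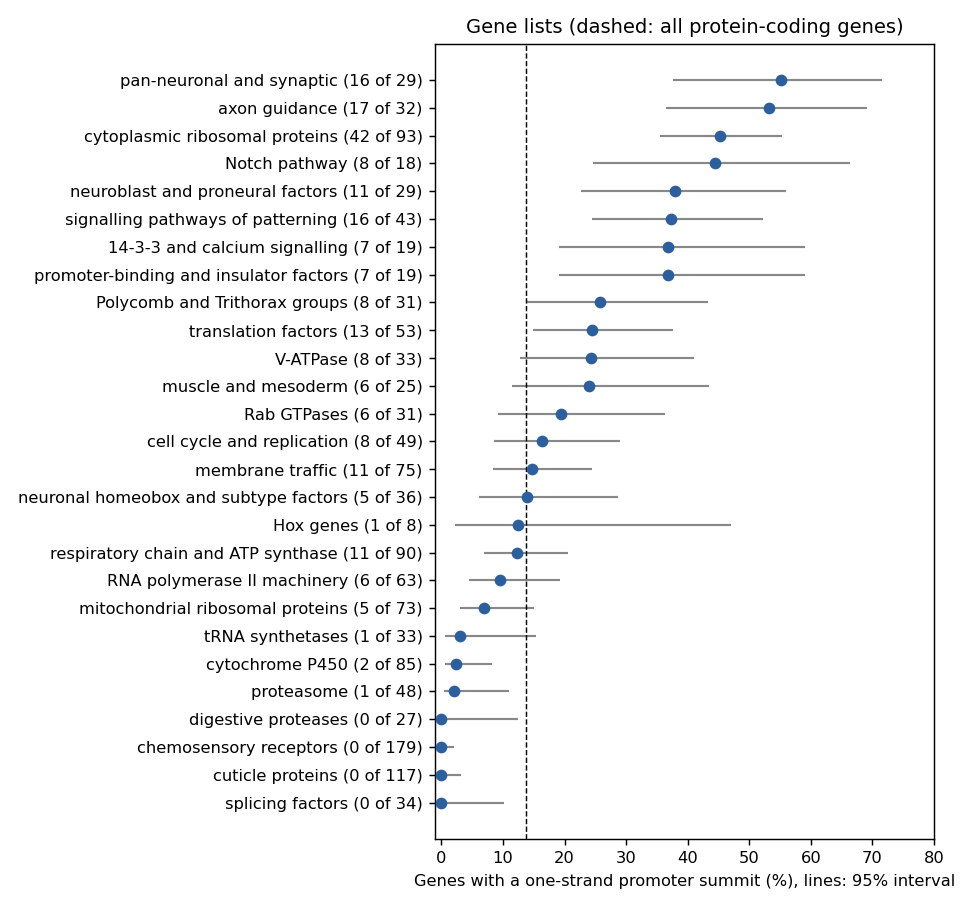
Percent of the genes of each list with a one-strand promoter summit (points) and 95% Wilson interval (lines), with the number of genes beside each list. The dashed line is the 13.7% of all protein-coding genes, and pan-neuronal, axon guidance and cytoplasmic ribosomal protein genes have the largest shares.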

How the data were processed

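Peak lists in dm6 coordinates were analysed: the list made from both replicates (the main list), the list from pooled data, and for each replicate the thresholded and the ranked list. Per the file headers, which are texts beside the lists, they were made from the alignments and a control alignment and thresholded on the irreproducible discovery rate. No aligner, peak caller or read depth is stated in the sources used here. The deposited signal value of each peak has an unstated scale and was otherwise compared within 1 list only. The deposited summit offset, another value of the lists, gave the summit position.

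Genes came from Ensembl release 115 and sequence from the Release 6 assembly. Peaks were matched between lists by an overlap of 1 bp, taking the tallest overlapping peak. Members with overlapping peaks can therefore share their replicate values, as the 2 at Pka-C1 do. Motif shares in windows of 50 bp on each side of the summit were compared by Fisher's exact test, two-sided, with 12 motifs in 3 comparisons adjusted together over 36 tests (Benjamini-Hochberg, threshold 0.05), after the procedure was tested on simulated windows. Intervals of 95% on shares are Wilson's and cover counting error only. Python 3.11.15 with pandas 2.3.3, SciPy 1.17.1 and statsmodels 0.14.6 was used.

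The members, gene lists and motifs were chosen with earlier results of these data known. Named were the genes nearest to the 20 highest members, the highest with and without the core motif, and those at the 500 bp limit. Named too were high members with TATCGATA or GGTCACACT, the 3 highest of each gene list (not all printed), those with most members and onecut. Alternatives were the pooled list, single replicates, other promoter and motif windows, other TSS sets and the stronger 50% of peaks. Comparisons of the replicates' signals, base composition and the longer motif were added after seeing the data.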

Additional observations from a re-analysis of the deposited data

How the results depend on the processing

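The number of members was between 1682 and 2485 in all settings but the stronger 50% of peaks, which by construction hold fewer (1202). Single replicate lists gave 1721 and 2098. The share of promoter summits that were one-strand was 74.5% and moved to 81.7% with promoters of 250 bp, 68.4% with 1000 bp, 72.4% with TSSs of all genes and 70.7% with the most upstream TSS of each gene, where the share upstream of the TSS was 57.6%. The ratio of median signals, members over divergent summits, was 0.963 in the stronger 50% and 0.942 with 250 bp. The share of members with the core motif was 37.1%. It was 38.2% to 38.8% in single replicate lists, 36.3% in the pooled list, 46.8% in the stronger 50%, 35.4% with promoters of 250 bp, 36.1% with 1000 bp and 37.7% with the most upstream TSSs. It was 27.2% in motif windows of 25 bp on each side of the summit, 44.9% in windows of 100 bp on each side and, in alternatives chosen after seeing the data, 35.4% without windows that hold TATCGATA and 42.0% among peaks past both thresholds. The odds ratio of the core motif against divergent summits (1.09) was 1.28 in the shorter windows, past the threshold, and turned to 0.873 with promoters of 1000 bp and 0.874 in the longer windows, not past it. Against summits outside promoters (0.905) it passed the threshold at 0.868 in the pooled list, 0.825 with 250 bp, 0.860 with 1000 bp and 0.844 without TATCGATA windows. It turned to 1.09 in the stronger 50% and 1.05 among peaks past both thresholds, not past the threshold, and single replicates gave 0.845 and 1.09. The odds ratio upstream against downstream (0.611) was 0.833 with 250 bp, no longer past the threshold, and 0.352 in the stronger 50%, and single replicates gave 0.395 and 0.641. Both TATCGATA odds ratios kept direction and threshold in all 10 planned settings. The replicate ratio with the motif over that without (1.23) was 1.36 in the stronger 50% and 1.29 among peaks past both thresholds. The causes of these changes were not tested. Read depth is unknown, so the limit it sets cannot be given. No paired analysis was possible because the samples form 1 group.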
